A study of Homo sapiens with 4 samples.

Results

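The cytosolic ribosomal protein genes were examined in RNA immunoprecipitation sequencing (RIP-seq) of MDA-MB-231 cells, a human triple negative breast cancer line. They were chosen by gene symbol alone: the RPL and RPS symbols with a number and an optional A, L or X, together with RPLP0, RPLP1, RPLP2 and RPSA, without pseudogene rows. The rule took 561 of the 75165 transcripts in the deposited table, and these belonged to 79 of its 20298 genes. The large subunit contributed 47 genes with 351 transcripts and the small subunit 32 genes with 210 transcripts. All 77 genes of the core lists were present, 46 of the large and 31 of the small subunit, and the other members were the paralogs RPL39L and RPS27L. RPL3L and RPL10L, also paralogs, had no listed transcript.

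All cells carried a lentiviral 3x flag-YTHDC1, an overexpressed and tagged form of a nuclear reader of the RNA modification m6A, introduced at a multiplicity of infection of 4 and followed by 4 days in 2 μg/ml puromycin. In 2 libraries the RNA was recovered with anti-flag antibody from the sonicated nuclei of UV-crosslinked cells (IP). In the 2 input libraries it was, by the authors' protocol, taken from the same kind of nuclear lysate and so was not whole-cell RNA. The authors depleted ribosomal RNA before the libraries were made. The values used here are the mean normalized counts of the table, read estimates scaled for library size by the authors and averaged over the 4 libraries. IP and input stand in the same mean, so no value below separates them, no spread between replicates can be given, no test was run, and the depth of each library is unknown. No control IgG library was among the 4. The mean normalized counts summed to 33361205 over the table. As a check of the cells, vimentin (VIM), a mesenchymal filament, had a gene total of 80785 mean normalized counts, the growth factor receptor EGFR 22483 and the adhesion receptor CD44 14306, whereas the epithelial cadherin CDH1 had 10.0 and the hormone receptors ESR1 and PGR had no listed transcript. ERBB2, the receptor HER2 that is not amplified in triple negative lines, had 4303 counts over 15 transcripts, so its RNA was not absent. YTHDC1 itself had a total of 55488 over 6 transcripts, which includes any RNA of the vector that matches it.

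Ribosomal proteins form the shell of the ribosome around its RNA core, and are made in the cytoplasm. Most are imported into the nucleus and assembled in the nucleolus, and some join the subunit later, in the cytoplasm. Their mRNAs are short, abundant and long-lived. Many begin with a 5′ terminal oligopyrimidine tract, a C followed by an unbroken run of C and T (C and U in the RNA), through which their translation responds to growth signals by way of mTOR and LARP1. Their introns host many small nucleolar RNAs, and several of the genes limit their own output by splicing that adds an early stop codon or keeps an intron.

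The start sites show this tract. RefSeq start sites on GRCh38.p14 were found for 63 of the 79 genes. The windows below cover 10 bases before and 20 bases from the annotated start, on the strand of the gene, and capitals mark the run of C and T that begins at the start itself. The first set holds genes described further below for their transcript classes.
RPL14 (chr3:40457329-40457358, + strand): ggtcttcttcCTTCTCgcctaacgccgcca
RPL21 (chr13:27251548-27251577, + strand): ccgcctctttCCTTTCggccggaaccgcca
RPS3 (chr11:75399508-75399537, + strand): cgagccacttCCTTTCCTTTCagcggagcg
RPS23 (chr5:82278335-82278364, - strand): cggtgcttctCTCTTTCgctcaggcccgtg
RPS24 (chr10:78033853-78033882, + strand): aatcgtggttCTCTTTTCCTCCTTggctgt
Genes with some of the highest totals of their subunit show long and short runs.
RPL7A (chr9:133348208-133348237, + strand): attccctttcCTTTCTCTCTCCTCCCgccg
RPL19 (chr17:39200313-39200342, + strand): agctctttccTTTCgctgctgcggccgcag
RPS19 (chr19:41860245-41860274, + strand): ccccgtcgttCCCTTTCCCCTggctggcag
In a last set the annotated start opens no such run.
RPS28 (chr19:8321486-8321515, + strand): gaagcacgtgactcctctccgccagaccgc
RPL4 (chr15:66504836-66504865, - strand): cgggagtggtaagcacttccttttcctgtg
RPS27L (chr15:63157458-63157487, - strand): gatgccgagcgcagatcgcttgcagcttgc
The windows were picked after the values were seen, to show both the usual form and its exceptions.

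Of the 63 genes, 46 (73.0%) had a start with C as its first base and a run of at least 5 C and T from there. The share was 28 of 38 in the large subunit (73.7%) and 18 of 25 in the small subunit (72.0%). It was 5.14% of the 27305 genes of the whole promoter table, 7.36% of 5595 other coding genes whose totals lay in the range of the core ribosomal protein genes, and 8.70% of 69 genes of the mitochondrial ribosome. The run reached 19 bases in RPL39 and had a median of 7 bases over the 63 genes, against a median of 0 in the other sets. For genes with several annotated starts the one with the tract was taken in every set, and over every annotated start the shares were 59.0% of 78 and 4.07% of 35116. A tract of this kind that began anywhere from 5 bases before to 10 bases after the start was present in 57 of the 63 genes (90.5%) and in 36.0% of the other coding genes of the same range. RPL4, RPL10A, RPL19, RPS26 and RPS28 were among the genes that had it near the start but not at it. It was in neither place in RPL6, RPL17, RPL27, RPS4X, RPS27L and RPS29. These are features of the annotation and not measurements of these libraries.

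**Figure D1:**
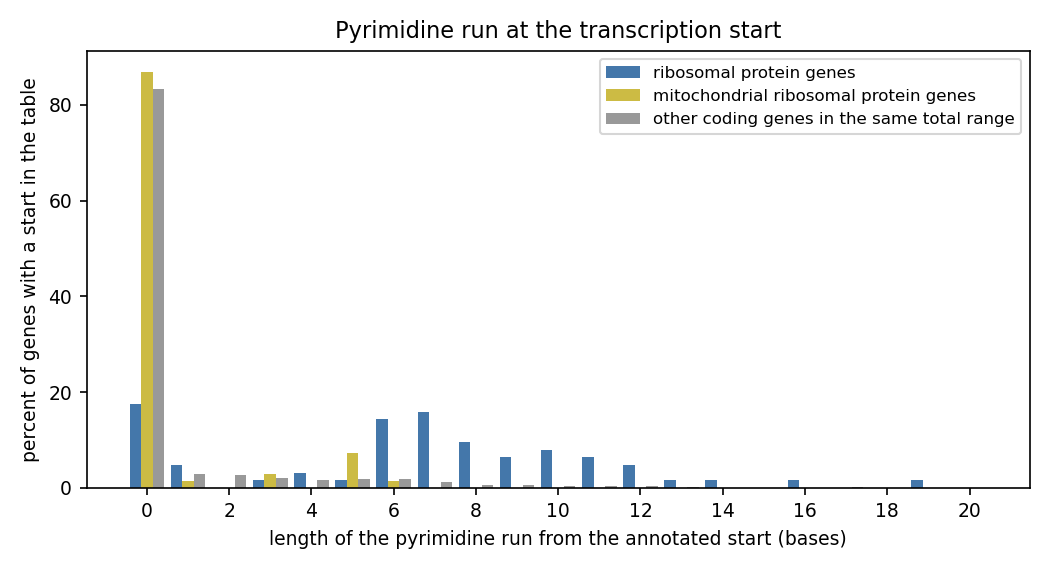
Length in bases of the run of pyrimidines (C or T) from the annotated RefSeq start (x axis) against the percent of genes in each set (y axis), 1 start per gene, with runs over 20 bases left out. Bars of the mitochondrial and the other coding genes stand mostly at 0, whereas the 63 ribosomal protein genes are spread around a median of 7.

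Together the 79 genes held 899977 mean normalized counts, 2.70% of the table, of which 1.76% was large subunit and 0.939% small subunit. Gene totals, the sums over a gene's listed transcripts, ran from 156 to 38198 with a median of 9353. The median was 11177 for large subunit genes (quartiles 5505 and 16836) and 8533 for small subunit genes (quartiles 3298 and 14550), so the ranges overlapped widely. For scale, the 13971 other coding genes had a median total of 580 and the 78 genes of the mitochondrial ribosome had 874. A total is a sum of reads that also grows with the length of the RNA, and lengths were not used here, so differences between genes below are differences in reads and give no order of RNA levels.

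In the large subunit the highest totals were those of RPL19 (38198), RPL7A (35764), RPL13A (34724), RPL3 (31175) and RPL8 (30639). RPL13A is known as a translational silencer after its release from the ribosome, and RPL3 lies close to the peptidyl transferase center. The lowest totals among core genes were RPL22 with 610, RPL9 with 1314 and RPL34 with 1660. In the small subunit RPS3, a protein at the mRNA entry channel that also acts in DNA repair, had the highest total at 28657, followed by RPS19 (22658), RPS2 (21874), RPS15 (19460) and RPS18 (19314). RPS13 with 1449, RPS29 with 1497 and RPS15A with 2094 had the lowest. Without a spread between libraries, neighbours in these orders cannot be told apart or ranked with an error.

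**Figure D2:**
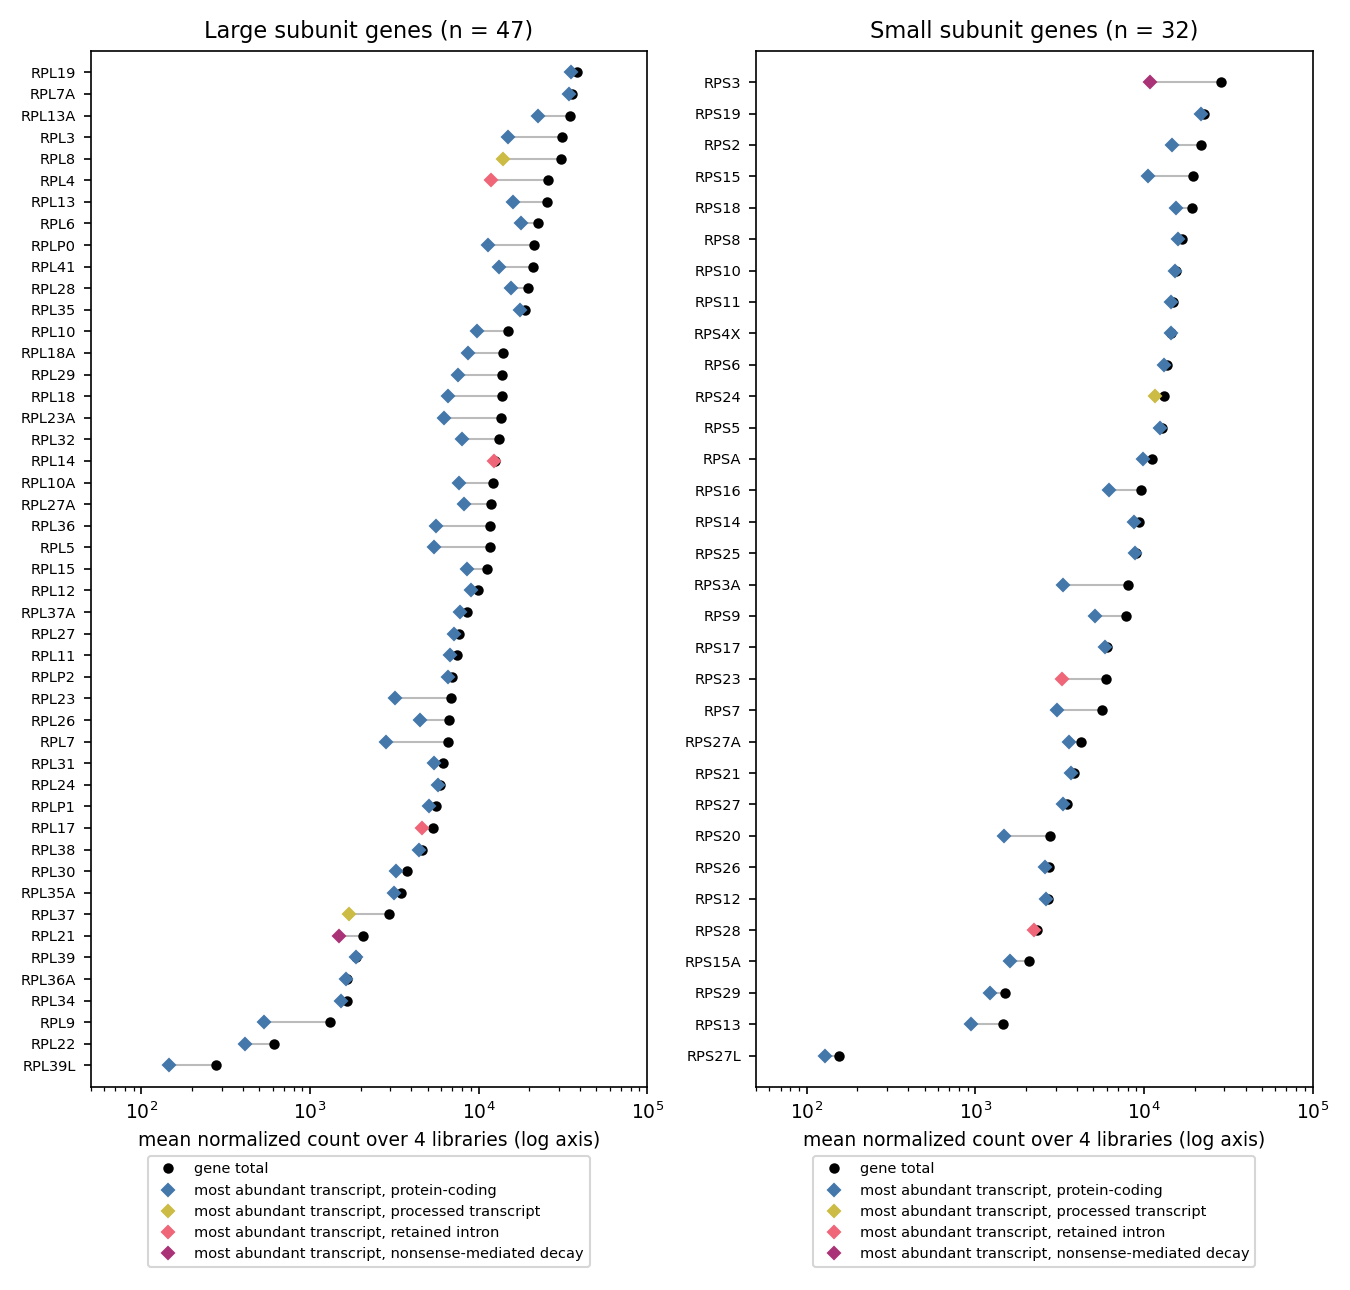
Mean normalized counts over the 4 libraries on a log axis for each large subunit gene (left) and small subunit gene (right), with the gene total as a black dot and the most abundant transcript as a diamond colored by its annotated class. Diamonds lie near the dot where 1 transcript holds most of the counts, and 10 of them are not blue, the color of the protein-coding class.

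GENCODE sorts the transcripts of a coding gene into classes. Protein-coding transcripts carry a full or partial reading frame, retained-intron transcripts keep intronic sequence, nonsense-mediated decay (NMD) transcripts have an early stop codon of the kind that marks an mRNA for destruction, and processed transcripts have no reading frame assigned. Protein-coding transcripts were 317 of the 561 (56.5%) and held 83.1% of the mean normalized counts. Retained-intron transcripts were many but mostly low: 151 transcripts (26.9%) held 6.35% of the counts, with a median of 30.1 per transcript against 202 for protein-coding ones. The 55 processed transcripts held 7.18%, the 37 NMD transcripts 3.39%, and the only non-stop decay transcript was RPL18-204, with 292 mean normalized counts.

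The subunits had nearly the same shares of transcripts in each class, whereas their shares of counts lay further apart. Protein-coding transcripts were 56.7% of the large and 56.2% of the small subunit's transcripts, and retained-intron transcripts 26.8% and 27.1%. By counts, protein-coding transcripts held 82.2% in the large and 84.7% in the small subunit, retained-intron transcripts 7.84% and 3.56%, processed transcripts 8.74% and 4.24%, and NMD transcripts 1.21% and 7.45%. Single genes made up much of these shares. RPS3 alone held 95.6% of the small subunit's NMD counts, and without it the share fell to 0.361%. The large subunit's NMD share was 1.21%, and 0.910% without RPL21, its own leading gene in that class. RPS24 held 90.8% of the small subunit's processed-transcript counts, and without it the share was 0.406%. In the large subunit RPL8 held 41.7% of the processed-transcript counts, and without it the share was 5.38%. RPL8, RPL4 and RPL41 together held 73.2% of them, and RPL41, which encodes the smallest ribosomal protein, had 7394 counts in the processed transcript RPL41-205 beside 13283 in the protein-coding RPL41-202. RPL4, RPL14 and RPL17 together held 71.6% of the large subunit's retained-intron counts, and RPS18, RPS23 and RPS28 83.5% of the small subunit's.

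**Figure D3:**
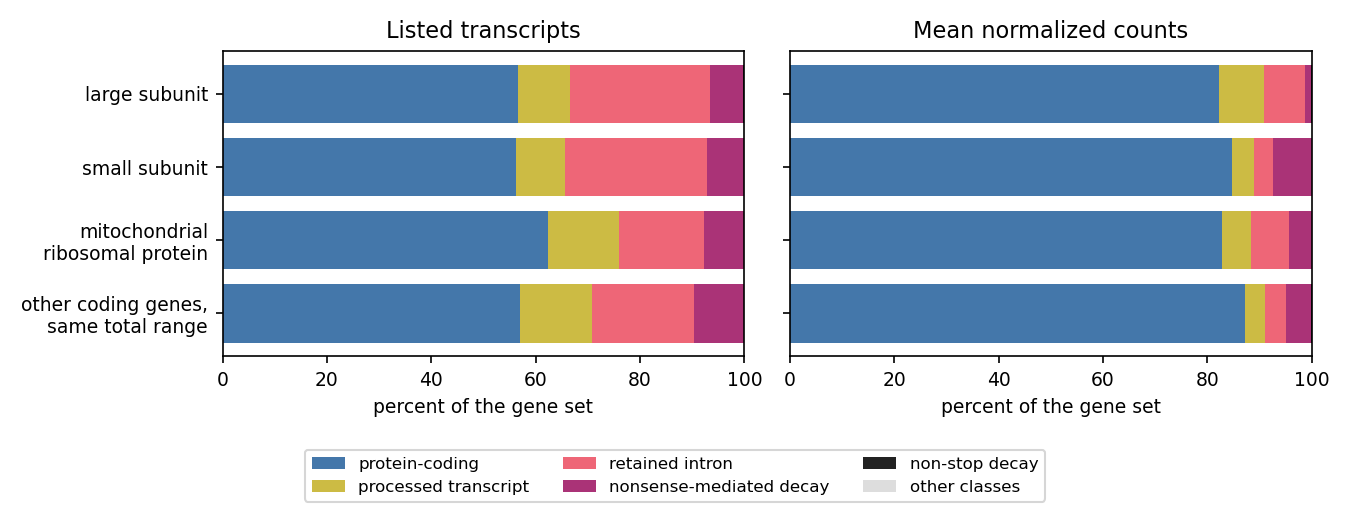
Percent of listed transcripts (left) and of mean normalized counts (right) in each annotated transcript class for the large subunit, the small subunit, mitochondrial ribosomal protein genes and other coding genes in the same range of totals. Retained-intron transcripts take 26.8% and 27.1% of the transcripts of the 2 subunits but 7.84% and 3.56% of their counts.

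Beside other genes, the members differed one way when all their counts were pooled and another way gene by gene. Pooled, protein-coding transcripts held 83.1% of the counts of the members and 87.1% of those of the 6780 other coding genes in the same range of totals, and retained-intron transcripts held 6.35% and 4.05%. The median retained-intron transcript had 30.1 counts in the members and 26.3 in the others. Gene by gene, at least 1 such transcript was listed in 61 of the 79 genes (77.2%), against 51.7% of these other coding genes and 35.9% of mitochondrial ribosomal protein genes. Where listed, they made up a median of 1.18% of the gene total, against 3.85% and 3.68%. NMD transcripts were listed in 28 genes (35.4%), against 36.4% and 21.8%, with a median of 0.824% of the gene total where listed, against 7.77% and 14.4%. At least 95% of the total was protein-coding in 54 of the 79 genes (68.4%) and in 46.2% of the other coding genes of the same range. The other coding genes spanned the range of the core members but were lower, with a median total of 1737 against 9353. The mitochondrial set had 874. A transcript was listed only above a minimum of reads, and a minor transcript of given counts is a smaller percent of a larger total. So neither how often a class was listed nor its percent of the gene total was compared at equal totals. No test was run on these shares, since genes are not replicates and the libraries are pooled.

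In 10 genes the most abundant transcript was not protein-coding, 6 of the large and 4 of the small subunit. This is 12.7% of the members, beside 8.88% of the other coding genes in the same range of totals, 12.9% of all other coding genes and 11.5% of mitochondrial ribosomal protein genes. Among genes with at least 2 listed transcripts, as all members had, these shares were 9.35%, 13.1% and 13.6%. That of the members lay above the set in the same range of totals and below the others, whose median totals were lower. By number of listed transcripts, members and the same-range set had 12.5% and 6.76% with 2 to 4, and 9.09% and 9.75% with 5 to 7. With 8 to 10 they had 0% and 11.4%, and with 11 or more 33.3% and 11.8%, each time of 15 members. The most one-sided of the 10 genes were RPL14 and RPS28. RPL14-208, a retained-intron transcript, had 12302 mean normalized counts and made up 98.5% of the RPL14 total, while its protein-coding transcripts RPL14-202 and RPL14-203 had 134 and 22.9. RPS28-201, also a retained-intron transcript, had 2213 of the 2318 counts of its gene, and the protein-coding RPS28-203 had 53.3. In RPL17 the retained-intron RPL17-219 had 4650 counts (86.2%), and the highest protein-coding transcript, RPL17-208, had 387. Protein-coding transcripts together held 1.25%, 2.30% and 13.5% of the RPL14, RPS28 and RPL17 totals. Which part of each transcript the reads covered is not given in the table.

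RPL4 and RPS23 were split more evenly. RPL4 had 11805 counts in the retained-intron RPL4-203, 8515 in the processed transcript RPL4-209 and 4032 in the retained-intron RPL4-205, which left 4.52% of its total to protein-coding transcripts. RPS23, which lies in the decoding center, had 3275 counts in the retained-intron RPS23-203 and 2325 in the protein-coding RPS23-208. It had the largest protein-coding share of the 10 genes, at 44.3%.

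In 3 of the 10 genes a processed transcript led. RPS24-212 had 11702 counts, 88.7% of the total of RPS24, a gene mutated in Diamond-Blackfan anemia, whereas its highest protein-coding transcript, RPS24-202, had 618. RPL8-208 and RPL8-206 had 14009 and 7364 counts, and RPL8-212, protein-coding, had 2450. RPL37-202 had 1712 counts beside 674 in the protein-coding RPL37-201.

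NMD transcripts led in RPS3 and RPL21. RPS3 had 16 listed transcripts, more than any other member, and its NMD transcripts RPS3-204, RPS3-218 and RPS3-216 had 10793, 8616 and 2904 counts. Its protein-coding RPS3-203 and RPS3-202 had 2919 and 2284, and the protein-coding share was 21.9%. In RPL21 the NMD transcripts RPL21-205 and RPL21-208 had 1497 and 312 counts of a total of 2064. In the other members NMD transcripts held smaller shares, led by 14.6% in RPS15A, 8.01% in RPL35A and 5.93% in RPL13. The third highest NMD share of the small subunit was 3.15%, in RPS27.

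**Figure D4:**
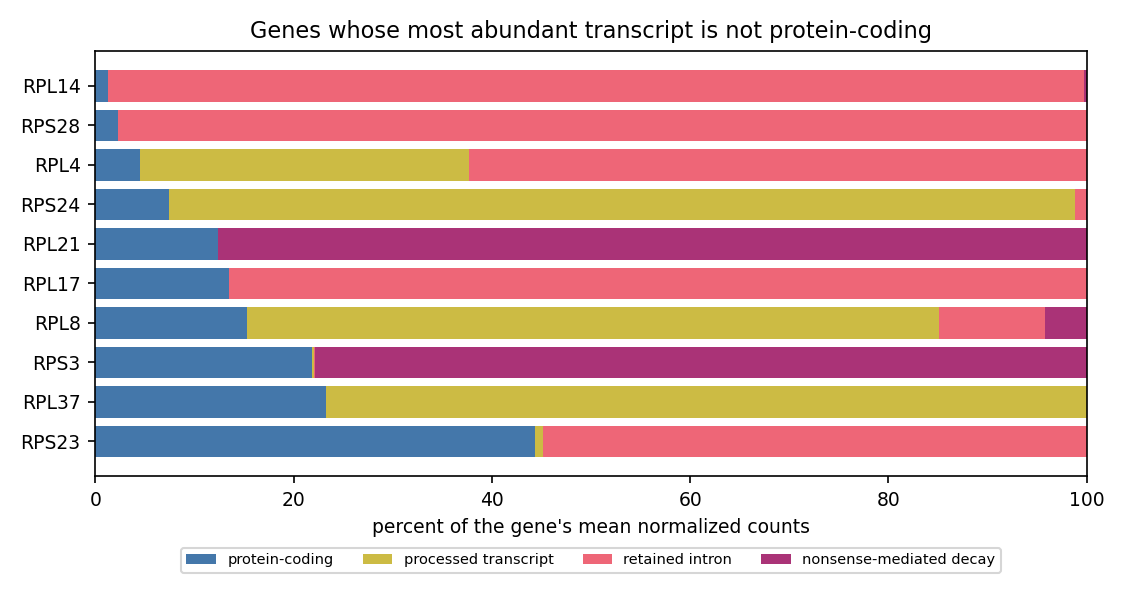
Percent of each gene's mean normalized counts (x axis) in the annotated transcript classes for the 10 ribosomal protein genes whose most abundant transcript is not protein-coding (y axis). RPL14 and RPS28 are nearly all retained intron, RPS24 nearly all processed transcript, and RPL21 and RPS3 mostly NMD.

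RPL3, RPL10A and RPL12, whose alternative splicing is known to be coupled to NMD, were not among the 10 and had protein-coding shares of 98.1%, 63.0% and 94.6%. RPL3 divided its reads evenly between RPL3-201 (15019 counts) and RPL3-202 (14979), both protein-coding, and its NMD share was 0.331% in RPL3-204. RPL10A had no NMD transcript listed and 4 processed transcripts, with counts from 467 to 2007. RPL12 had 440 counts in the processed transcript RPL12-204 and 9030 in the protein-coding RPL12-201.

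The ribosomal stalk, which recruits the elongation factors, consists of RPLP0, RPLP1 and RPLP2, and their totals were 21258, 5614 and 6956. RPLP0 was the most divided of the 3, with 15 listed transcripts and 53.4% of its counts in RPLP0-203, and RPLP0-216, a processed transcript, had 2569 counts. RPLP1-202 and RPLP2-201 held 90.3% and 94.5% of their genes.

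RPL5 and RPL11 bind the 5S rRNA and, outside the ribosome, inhibit MDM2. Their transcripts were unlike: RPL11-201 held 90.5% of 7433 counts, whereas RPL5 had 37.4% of 11638 counts in retained-intron transcripts, led by RPL5-207 with 2748 and RPL5-210 with 1595, beside 5440 in the protein-coding RPL5-202. This retained-intron share was the highest among large subunit genes with a protein-coding leading transcript. In the small subunit RPS18 held that place, with 19.5% of its counts in retained-intron transcripts and 3298 counts in RPS18-235.

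RPS19 and RPS26, which like RPS24 are mutated in Diamond-Blackfan anemia, had simple patterns. RPS19-201 held 95.8% of 22658 counts, and RPS26 had just RPS26-203 and RPS26-204, both protein-coding, with 2604 and 117 counts. RPS6, the classical substrate of S6 kinase, had 95.8% of 13732 counts in RPS6-201. RPSA, which also serves as a laminin receptor, had 88.6% of 11106 counts in RPSA-201. RPS27A, made as a fusion with ubiquitin, had 84.8% of 4254 counts in RPS27A-203.

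All 79 genes had at least 2 listed transcripts, with a median of 7 and a range of 2 to 16. The most abundant transcript held a median of 80.5% of the gene total, from 37.7% in RPS3 to 99.8% in RPS4X, the X-linked RPS4 gene. The median was 69.3% in the large and 88.6% in the small subunit, with quartiles of 53.9% and 90.8% against 65.4% and 96.0%. The most abundant transcript held at least 90% in 31 genes (39.2%), beside 13.1% of the other coding genes of the same range with at least 2 transcripts. It held under 50% in 12 genes (15.2%), beside 32.6% of those other coding genes. Of the 12, 10 were large subunit genes, 21.3% of that subunit. Among genes with 2 to 4 listed transcripts the median was 95.6% in ribosomal protein genes and 79.1% in the others, with 5 to 7 it was 80.5% and 59.8%, with 8 to 10 it was 79.4% and 48.7%, and with 11 or more it was 63.2% and 43.9%. Above the median of the other coding genes of the same range, in the same group of transcript numbers, lay 66 of the 79 genes. Of these, 37 were large and 29 small subunit genes. The last group reached 16 transcripts in the members, whereas the others had up to 40. The others also had lower totals as a set, with a median of 1737 against 9353, so these shares were not compared at equal totals.

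**Figure D5:**
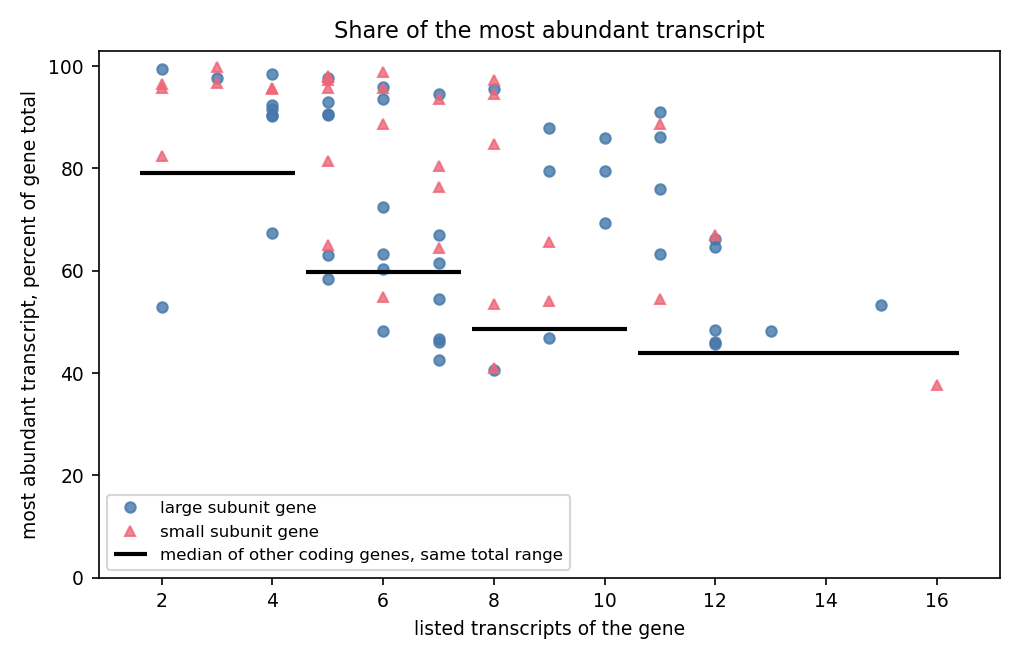
Percent of the gene total in the most abundant transcript (y axis) against the number of listed transcripts (x axis) for large subunit (circles) and small subunit (triangles) genes, with black lines for the medians of other coding genes in the same range of totals, the last line covering 11 or more transcripts. Above the lines lie 66 of the 79 genes, and RPS3 lies lowest at 37.7%.

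Several members have near-identical copies, and the division of reads among them is uncertain. Pseudogenes named after a member were listed for 57 of the 79 genes, in 241 rows that held 18119 mean normalized counts, 2.01% of the members' own total. Per gene they came to a median of 1.03% of the parent's total, and they reached at least 10% for 4 genes. RPL22P1 had 1555 counts, more than the 610 of RPL22 itself. RPS28P7 had 1453 counts, 62.7% of the total of RPS28, which is also a gene led by a retained-intron transcript. For RPL23A, 24 pseudogenes had 4975 counts, 36.7% of its total, of which RPL23AP42 had 4084, and for RPL21 pseudogenes came to 10.4%. Whether these reads came from the pseudogenes was not tested.

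The paralogs within the rule were low beside their parents. RPS27L, a p53-inducible relative of RPS27, had 156 counts against 3478, and RPL39L, known from the testis, had 276 against 1883 for RPL39. Both were listed with 2 protein-coding transcripts and nothing else. Of 4 paralogs outside the rule, RPL7L1 and RPL36AL had more counts than their namesakes, at 14850 against 6597 for RPL7 and 3541 against 1666 for RPL36A. RPL26L1 had fewer, at 654 against 6700 for RPL26, as did RPL22L1, at 106 against 610 for RPL22. Read-through transcripts that join a member to its neighbor overlap with it, and they were RPL36A-HNRNPH2 with 736 counts, RPS10-NUDT3 with 511 and RPL17-C18orf32 with 17.2.

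FAU and RACK1 also encode proteins of the small subunit, though the rule does not take their symbols, and most of their counts were protein-coding. FAU, whose product is fused to a ubiquitin-like protein, had 8227 counts over 7 transcripts, 99.8% of them protein-coding. RACK1, a scaffold on the small subunit, had 23562 counts over 25 transcripts, 94.3% of them protein-coding.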

How the data were processed

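RIP-seq libraries of MDA-MB-231 cells (2 IP, 2 input) were grouped by the treatment label. The authors mapped reads with STAR (2.7.2b) to a GENCODE v33 transcriptome (GRCh38), estimated reads per transcript with RSEM (1.2.31), required 5 or more reads in 50% of the samples, and applied RUVSeq and DESeq2. RSEM divides reads that match several transcripts by a statistical estimate. The deposited signal used here averages each transcript's normalized count across the libraries, with no value per library, so its precision is unknown. The table's 4 other value columns hold the authors' comparison of IP with input (log2 fold change, its standard error, p-value and adjusted p-value) and were not used. The planned test on counts per library was not run.

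Values were summed per gene and class with python 3.11.15, numpy 2.4.6, pandas 2.3.3 and matplotlib 3.10.9, and the steps were tested on simulated data. All 79 gene identifiers were found in a table of gene names. Start sites came from RefSeq (GRCh38.p14). Genes named were the 5 highest and 3 lowest core totals of each subunit, the 3 largest retained-intron and NMD shares, every gene led by a transcript that is not protein-coding, and lists by role. Totals stand without division by length. The members and lists were chosen with earlier results of these data known. The mitochondrial, pseudogene, read-through and outside-paralog comparisons were added after the values were seen. So were RPL41, RPS4X and the ranking of RPL5, a gene of the lists by role, by its retained-intron share.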

Additional observations from a re-analysis of the deposited data

How the results depend on the processing

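No paired analysis was possible because the table has no values per library. For the same reason other scalings, leave-one-out fits and count filters per library were not run. Division by length was not done either, since no transcript lengths were used. With no spread between libraries, a value was taken as moved when it changed by over 1.5 times. Of 66 alternative values for 15 results, 61 stayed within that. The 15 results covered the share of the table, class shares of counts, median totals and the most abundant transcript. The tally is a weak check, since some values could hardly move so far. Shares such as the 82.2% and 84.7% in protein-coding transcripts could not rise by 1.5 times without passing the whole. The median total of large subunit genes, 11177, was 7372 with protein-coding transcripts alone and 6731 with the most abundant transcript alone. For small subunit genes the median of 8533 was 6886 and 6058 in these settings, so the subunits' medians lay closer together. Minimum mean normalized counts of 10 and 100 and core genes alone moved none of the 15 results. Shares of listed transcripts, how often a class was listed and its median percent where listed were not recomputed at these minimums. Nor was the comparison by number of listed transcripts, although 54.7% of the members' transcripts had mean normalized counts below 100. Keeping pseudogene rows, of which 0 had a member's symbol, left the share of the table unchanged. Adding FAU and RACK1 to the small subunit, chosen after the data were seen, also moved no result. A wider addition of genes is not reported here. Leaving out single genes, also chosen then, moved 3 class shares: the processed-transcript share to 5.38% of large subunit counts without RPL8 and 0.406% of small subunit counts without RPS24, and the NMD share to 0.361% of small subunit counts without RPS3.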
